A study of Mus musculus with 4 samples.

Results

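The genes described here carry glucose carbon from uptake to the citrate cycle in the ventral midbrain of mice without REV-ERBα: glycolysis, lactate handling, pyruvate entry, the cycle itself, glycogen and the pentose phosphate branch. A fixed list of 58 symbols was matched to array probe sets that the platform annotation assigns to exactly 1 symbol, and where a gene had several, the one brightest on average across the 4 arrays stood for it. Of the 58 genes, 54 had such a probe set, out of 19938 genes on the array. Hk2 lay below the brightness filter, so 53 were tested among 13587 genes. Gpi1, Gapdh, Eno1 and G6pdx had no probe set of a single symbol and were not analysed here; Gapdh was named together with other symbols on 25 probe sets.

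RNA came from 2 groups of male mice on a C57BL/6J background, aged 10 to 15 weeks. The WT group was wild-type and the RKO group carried a knock-out of Rev-erba (Nr1d1), the gene of the nuclear receptor REV-ERBα. All mice had been entrained for more than 10 days to a cycle with 12 h of light and then spent 2 days in constant darkness before tissue was taken on the following day. Each group was represented by 2 arrays, which the labels call biological replicates. The number of mice behind an array, the clock hour of collection and the deleted part of Nr1d1 are not given in the sources used here.

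Glycolysis splits glucose into pyruvate in the cytosol, and lactate dehydrogenase interconverts pyruvate and lactate, which cells exchange through monocarboxylate transporters. The pyruvate dehydrogenase complex commits pyruvate to the mitochondrial citrate cycle and is switched off by its kinases and on by its phosphatases. In brain, glycogen is held mostly by astrocytes, while neurons depend heavily on oxidation of pyruvate. REV-ERBα is a transcriptional repressor of the circadian clock, and in liver it is known for its influence on glucose and lipid metabolism; the comparison asks whether the transcripts of these pathways differ in the midbrain without it.

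None of the 53 tested genes passed the test between RKO and WT. In limma, with a Benjamini-Hochberg adjusted p under 0.05 over all tested genes as the threshold, 0 rose and 0 fell. Of all 13587 tested genes 218 were called (1.60%), with 0.640% of tested genes higher and 0.964% lower in RKO. At an unadjusted p under 0.05 there were 3 members, Pygm, Idh2 and Pdk1, which is 5.66% of the 53, against 12.8% of all tested genes. With an intensity trend in the variance estimate limma called 2 members, Pygm and Pdp1, where it called 3.67% of all tested genes.

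The differences were small in both directions. Log2 differences (RKO minus WT) ran from -0.13 for Me2 to 0.20 for Pygm, with a median of 0.0034, and 28 members lay above 0 and 25 below. Over all tested genes the median was -0.01 and 43.2% lay above 0. The median size of a difference, whatever its sign, was 0.0368 for the members and 0.0519 for all tested genes. Most members were bright, with 51 of the 53 above the 60th percentile of the probe sets. Over all genes above that percentile the median size was 0.0454, between the values of the members and of all tested genes. The part of brightness in the gap was not tested. Standard errors (SE) of the members lay between 0.0545 and 0.0697, and 39 of the 53 differences were smaller than their own SE. Over all tested genes the lowest SE, 0.0545, exceeded the median size of 0.0519, so most of their differences were smaller than their SE too. For 52 of the 53 members the 95% interval of the difference lay within 1.25-fold either way, as it did for 92.8% of all tested genes. The exception was Pygm, whose interval ran from 0.07 to 0.33 and so passed 1.25-fold on the upper side.

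**Figure D1:**
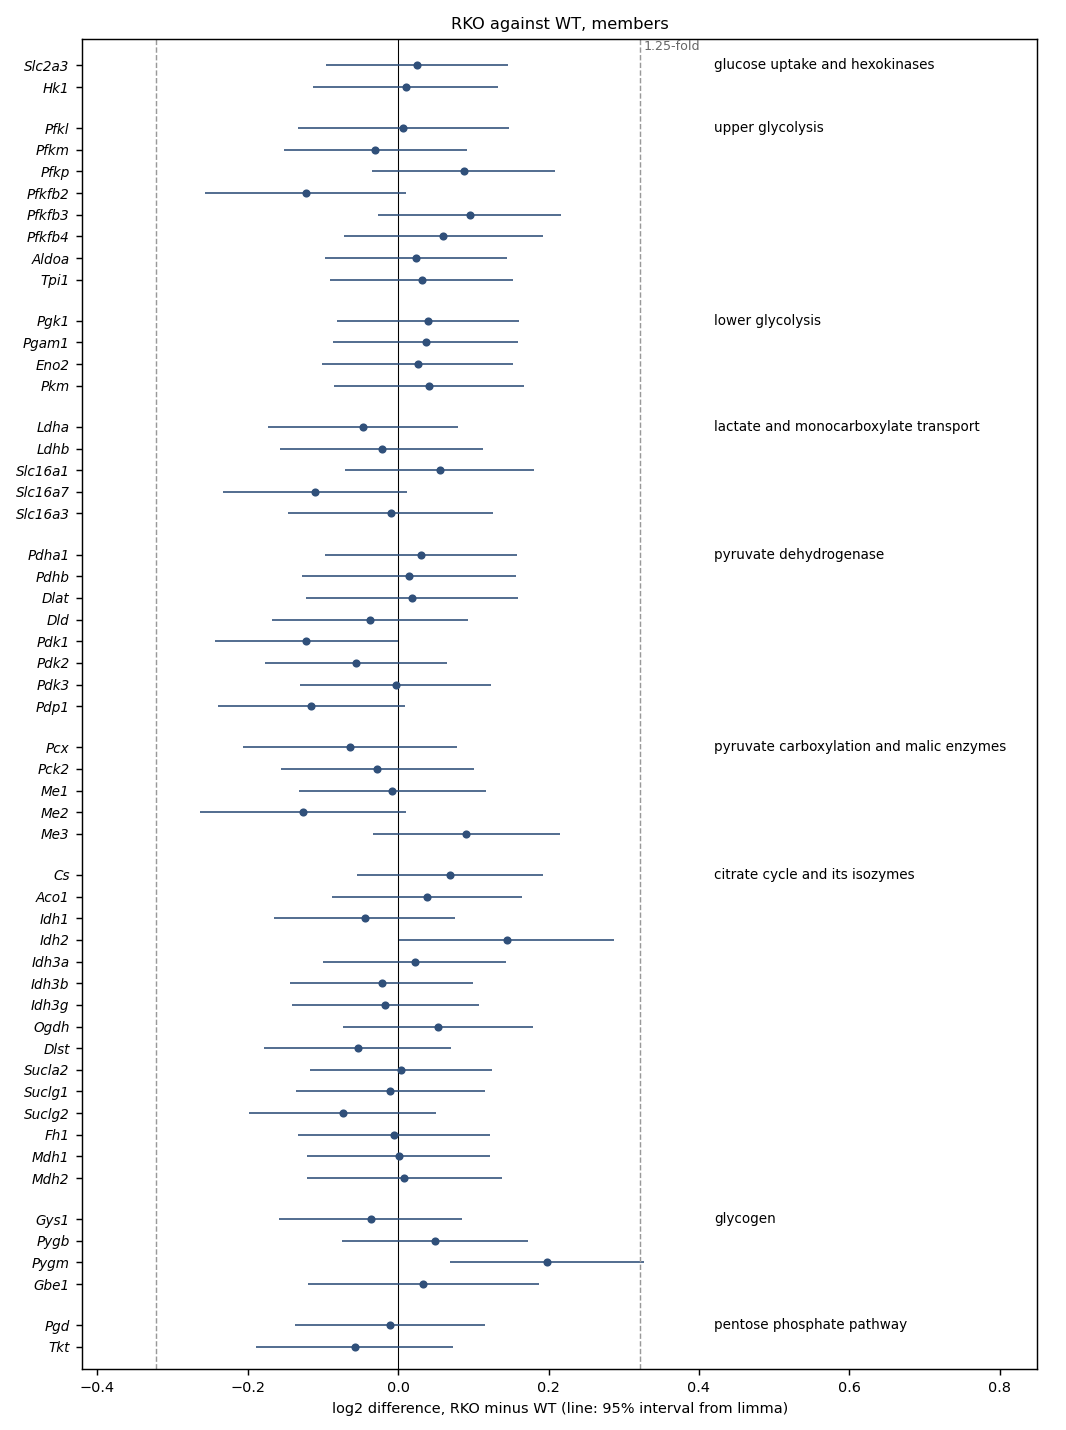
Log2 difference between RKO and WT (RKO minus WT, x axis) for the 53 tested genes, grouped by role; points are limma estimates from 2 arrays per group, lines are 95% intervals and dashed lines mark 1.25-fold either way. The interval of Pygm alone crosses a dashed line, and the points run from -0.13 (Me2) to 0.20 (Pygm).

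The groups did not overlap in 26 members (49.1%), compared with 41.8% of all tested genes. Both RKO arrays were above both WT arrays in 15 members (28.3%, against 17.2% of all tested genes) and below them in 11 (20.8%, against 24.6%). Between single arrays the SD of the log2 difference over the 53 members came to 0.0533 for the WT pair, 0.0593 for the RKO pair and 0.0658 to 0.0844 between arrays of different groups. The corresponding values over all tested genes were 0.0998 and 0.0929 within the groups and 0.109 to 0.143 between them.

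**Figure D2:**
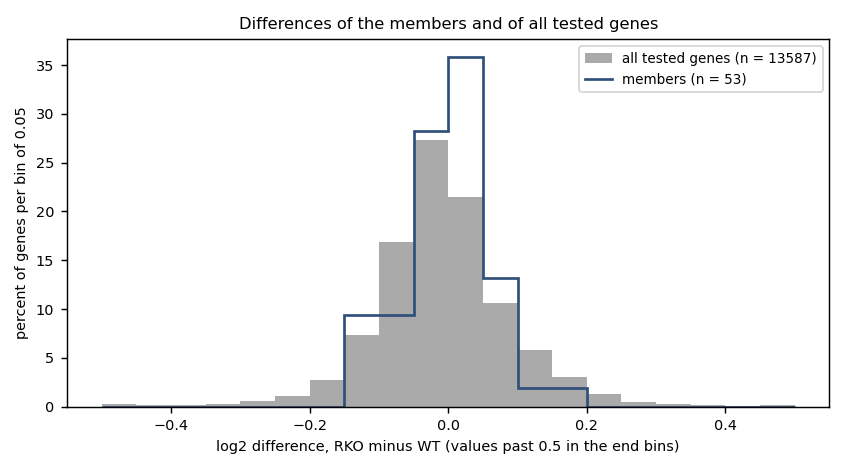
Percent of genes (y axis) per bin of log2 difference between RKO and WT (RKO minus WT, x axis, bins of 0.05), for the 53 members (line) and the 13587 tested genes (grey). The members occupy the centre, between -0.13 and 0.20, while the end bins at -0.5 and 0.5 hold the tested genes past those values.

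Within the RKO group the arrays differed in a common direction. RKO replicate 2 exceeded RKO replicate 1 in 42 of the 53 members (79.2%), with a median log2 difference of 0.04, and in 68.1% of all tested genes, with a median of 0.04 as well. Between the WT arrays replicate 2 was higher in 32 of the 53. The median member stood at -0.02 relative to the WT mean on RKO replicate 1 and at 0.03 on RKO replicate 2, so its sign differed between the RKO arrays. The part of this array difference in single members was not tested.

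Before the roles in turn, sequences upstream of the genes are shown, because the clock acts on its targets through short DNA elements: REV-ERBα and its activating competitors of the ROR family bind TAGGTCA elements, and CLOCK with BMAL1 binds the E-box CACGTG. Both were searched on both strands in the 250 bases before the annotated starts of each gene (RefSeq, GRCm38.p6), where 53 of the 58 members had an entry. Among the 48 members both tested and listed, 0 held TAGGTCA and 8 (16.7%) held CACGTG. Among the 10799 tested genes with an entry the shares were 1.96% and 9.72%. A match is a run of letters and not a shown binding site, and the absence of one says only that these letters are not in this window. The 8 members with an E-box were Pfkfb2, Pfkfb3, Pfkm, Slc16a1, Ldha, Pdk2, Ogdh and Pcx. Ldha and Ogdh held 2 matches each. Single matches of 6 genes are printed on the strand of the gene with the E-box in capitals, to be set beside the values of these genes further on.
Pfkfb2 (chr1:130715826-130715855, minus strand): ggccaagcgcccCACGTGactcgccccaac
Pfkfb3 (chr2:11502126-11502155, minus strand): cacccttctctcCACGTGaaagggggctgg
Pfkm (chr15:98092441-98092470, plus strand): aattaagtatgcCACGTGaagtaagtaatt
Slc16a1 (chr3:104638452-104638481, plus strand): gcggcgccgggtCACGTGgcgggaaggggg
Ldha (chr7:46845744-46845773, plus strand): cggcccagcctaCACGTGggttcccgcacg
Pdk2 (chr11:95041480-95041509, minus strand): ctcgaggagagcCACGTGtcgaagcgcaag

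The E-box of Pfkfb2 begins 22 bases before the start, that of Ldha 48 and that of Pfkfb3 53, while those of Pdk2, Pfkm and Slc16a1 lie 126, 136 and 200 bases upstream. The genes with an E-box did not share a direction. Pfkfb3 (0.10), Slc16a1 (0.06) and Ogdh (0.05) lay above 0, and Pfkfb2 (-0.12), Pcx (-0.06), Pdk2 (-0.06), Ldha (-0.05) and Pfkm (-0.03) lay below. None of these 8 passed the test.

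In glucose entry 0 of 2 tested genes passed. Slc2a3, the glucose transporter characteristic of neurons, had intensities of 1972 and 1998 in WT and 2024 and 2015 in RKO (log2 difference 0.03, SE 0.0547, adjusted p = 0.919 in limma). Its RKO values exceeded both WT values, but by less than the SE of the difference. Hk1, the main hexokinase of brain, which phosphorylates glucose on entry, gave 5041 and 4853.5 in WT and 5003 and 4957 in RKO (0.01, SE 0.0558), with the RKO values inside the WT range. A dimmer probe set of Hk1 stood at 0.08 without overlap, with 1690 and 1689 in WT and 1726 and 1845 in RKO. RefSeq places Hk1 on chromosome 10, and the number of this dimmer probe set falls between those of Cs and Pfkl, also of chromosome 10. That of the brighter one falls between those of Tkt and Pck2, genes of chromosome 14. Which locus the brighter probe set reads was not tested, so its value is uncertain for Hk1. Hk1 was also named together with other symbols on 16 probe sets. Hk2, the inducible hexokinase of muscle and tumours, had 142 and 154 in WT and 153 and 155 in RKO; on every array the gene was dimmer than the minimum of 167 and so was not tested.

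In upper glycolysis 0 of 8 tested genes passed. The bifunctional enzymes that make and remove fructose 2,6-bisphosphate, the allosteric activator of phosphofructokinase, held both ends of the range. Pfkfb3, the isozyme with the strongest kinase activity, had 505 and 518 in WT and 543 and 549 in RKO, with RKO above WT on every array (0.10, SE 0.0552, adjusted p = 0.532). Pfkfb2, first known as the heart isozyme, had 749 and 749 in WT and 659 and 718 in RKO (-0.12, SE 0.0606, adjusted p = 0.446). Its RKO arrays were both below WT but lay farther from each other than the closer of them lay from WT, and the difference was -0.06 without RKO replicate 1 and -0.18 without RKO replicate 2. Pfkfb4 stood at 0.06 with overlapping groups.

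The 3 phosphofructokinase subunits, which catalyse the committed step, did not move together. Pfkp, the platelet-type subunit, was at 0.09 with RKO above WT, Pfkm of muscle at -0.03 with RKO below WT, and Pfkl of liver at 0.01 with RKO replicate 1 below and RKO replicate 2 above both WT arrays. Aldoa, the aldolase that cleaves the hexose, differed by 0.02 and Tpi1, which interconverts the triose phosphates, by 0.03, both with RKO above WT. In each of these 5 genes the 95% interval of the difference included 0.

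Lower glycolysis gave 4 tested genes, all slightly above 0 and none passing. Differences ran from 0.03 for Eno2, the neuronal enolase, to 0.04 for Pkm, which encodes the pyruvate kinase of brain and muscle. The WT arrays gave Eno2 4395 and 4403, the RKO arrays 4347 and 4614, so that the WT values fell between the RKO values (SE 0.0576, adjusted p = 0.923). Pkm had 4267 and 4486 in WT and 4452 and 4550.4 in RKO, with overlapping groups (SE 0.0571, adjusted p = 0.862); its second probe set, dimmer, stood at 0.10. Pgk1, which makes the first ATP of the pathway, and Pgam1, which shifts the phosphate of phosphoglycerate, were both at 0.04 with RKO above WT. The 2 dimmer probe sets of Pgam1 stood at 0.0086 with overlapping groups. For Pgk1 and Pgam1, as for Aldoa, Ldha and Ldhb, RefSeq names 1 to 3 pseudogenes each, and 2 of the 3 probe sets of Pgk1 held identical values on every array, as did the 2 dimmer ones of Pgam1. Signal from such copies cannot be separated here.

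**Figure D3:**
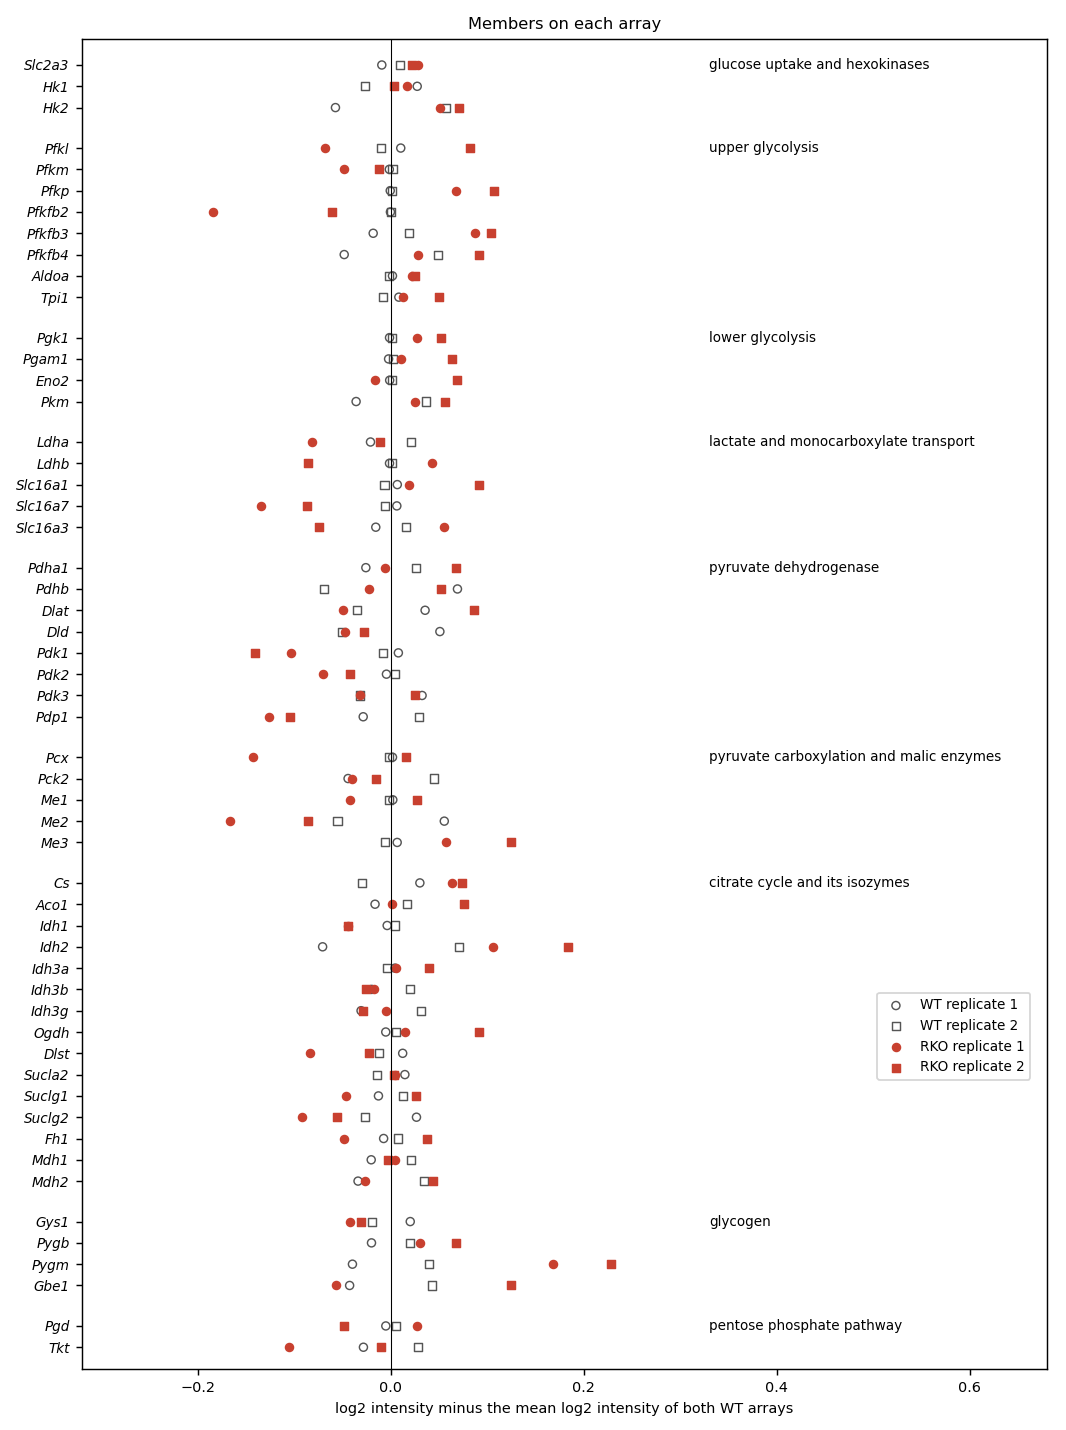
Log2 intensity of 54 members on each array, relative to the mean log2 intensity of both WT arrays (x axis), grouped by role; open symbols are WT, filled symbols RKO, circles replicate 1 and squares replicate 2. The members farthest from the WT mean are Pfkfb2 on the left and Pygm on the right, and RKO replicate 2 (filled squares) lies to the right of RKO replicate 1 in 42 of the 53 tested genes.

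Lactate handling was also without a call. Ldha, the dehydrogenase subunit that favours lactate formation, differed by -0.05 and Ldhb, the subunit favoured in oxidative tissue, by -0.02, each with overlapping groups; a second probe set of Ldhb lay just above 0, at 0.0024. Of the monocarboxylate transporters, Slc16a7 (MCT2), the neuronal carrier with high affinity for lactate, had 689 and 683 in WT and 625 and 646 in RKO. Both RKO arrays were below both WT arrays (-0.11, SE 0.0555, adjusted p = 0.451). Slc16a1 (MCT1), found in endothelium and oligodendrocytes among other cells, had 1149.8 and 1139 in WT and 1159.6 and 1219 in RKO (0.06, SE 0.0568, adjusted p = 0.788). Slc16a3 (MCT4), the low-affinity exporter of astrocytes, stood at -0.01. None of the 5 had an unadjusted p under 0.05.

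Around the pyruvate dehydrogenase complex, which admits pyruvate to the citrate cycle, the regulators Pdk1 and Pdp1 held the lowest log2 differences. Pdk1, a kinase that inactivates the complex, had 412 and 408 in WT and 382 and 372 in RKO, with no overlap (log2 difference -0.12, SE 0.0552, unadjusted p = 0.0494, adjusted p = 0.388 in limma). Pdp1, the phosphatase catalytic subunit that reverses this inactivation, had 5471 and 5693 in WT and 5112 and 5192 in RKO, also without overlap (-0.12, SE 0.0561, adjusted p = 0.434). With an intensity trend Pdp1 was called lower. Both the kinase and its opponent therefore had lower values, neither past the main threshold.

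Pdk2, the most widespread kinase, was at -0.06 with RKO below WT, and Pdk3 overlapped between groups at -0.0032. The catalytic subunits Pdha1 (0.03) and Pdhb (0.01), the transacetylase Dlat (0.02) and the dehydrogenase Dld (-0.04) overlapped between groups. Pdha1, the highest of the 8, had 1888 and 1957 in WT and 1913 and 2014 in RKO (SE 0.0579, adjusted p = 0.901).

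Anaplerotic and malic enzymes split in sign. Me2, the mitochondrial malic enzyme that uses NAD, had 881 and 816 in WT and 755 and 798 in RKO (-0.13, SE 0.062, adjusted p = 0.440), and Me3, its NADP-dependent mitochondrial relative, had 431 and 427 in WT and 446 and 467 in RKO (0.09, SE 0.0565, adjusted p = 0.57). The groups did not overlap in either. The difference of Me2 was -0.07 without WT replicate 1 and -0.18 without WT replicate 2. Me1, the cytosolic enzyme, differed by -0.01, Pck2, the mitochondrial phosphoenolpyruvate carboxykinase, by -0.03 and Pcx, the pyruvate carboxylase that refills oxaloacetate in astrocytes, by -0.06, all with overlapping groups. RKO replicate 2 was above RKO replicate 1 in all 5.

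Among 15 citrate cycle genes and their isozymes 8 lay above and 7 below 0, with a median size of 0.0222. Idh2, the NADP-linked isocitrate dehydrogenase of mitochondria, was the highest, with 719 and 793 in WT and 812 and 857 in RKO (0.14, SE 0.0647, unadjusted p = 0.0479, adjusted p = 0.383). Its RKO values exceeded both WT values, although the WT arrays were farther apart than the nearest WT and RKO arrays. Leaving out 1 array at a time moved its difference between 0.07 and 0.22. The cytosolic isozyme Idh1 was at -0.04 with RKO below WT, and the 3 subunits of the NAD-linked enzyme, Idh3a (0.02), Idh3b (-0.02) and Idh3g (-0.02), lay close to 0.

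Suclg2, a β subunit of succinyl-CoA ligase, was the lowest, with 486 and 469 in WT and 448 and 459 in RKO (-0.07, SE 0.0562, adjusted p = 0.668). Its other probe set lay at 0.02, so the 2 probe sets did not share a sign. RefSeq places Suclg2 on chromosome 6, and the number of this other probe set falls between those of Hk2 and Slc2a3, also of chromosome 6. That of the brighter one falls between those of Pdk3 and Pdha1, genes of chromosome X. Which locus the brighter probe set reads was not tested, so the lower value is uncertain for Suclg2. Citrate synthase (Cs, 0.07), with which the cycle begins, and Ogdh (0.05) of the oxoglutarate dehydrogenase complex had RKO above WT, while Dlst (-0.05) of the same complex had RKO below WT. Aco1, the cytosolic aconitase that also serves as an iron sensor, stood at 0.04. Sucla2, Suclg1, Fh1, Mdh1 and Mdh2, which complete the cycle and the malate shuttle, all overlapped between groups, with differences from -0.01 to 0.01.

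Glycogen genes held the largest difference. Pygm, the muscle form of glycogen phosphorylase, which in brain is found in astrocytes, had intensities of 1515 and 1601 in WT and 1750.1 and 1824 in RKO. Both RKO arrays were above both WT arrays, a difference of 1.15-fold (log2 difference 0.20, SE 0.0586, 95% interval 0.07 to 0.33, unadjusted p = 0.00638, adjusted p = 0.154 in limma). It did not pass, and was called with an intensity trend (adjusted p = 0.00796). Over 12 alternatives without crossed replicate numbers its adjusted p ran from 0.00796 to 0.601 and its difference from 0.16 to 0.24.

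The brain form Pygb was at 0.05 with RKO above WT and the branching enzyme Gbe1 at 0.03 with overlapping groups. Glycogen synthase Gys1 was the lowest of the 4, with 518 and 503 in WT and 496 and 499.8 in RKO (-0.04, SE 0.0552, adjusted p = 0.872). Astrocytes and skeletal muscle both express Pygm, and their markers were read beside it. Of 8 astrocyte markers 2 fell, Gfap (-0.51) and Aldh1l1 (-0.31), 0 rose and 6 did not pass. Gja1 (0.22) and Slc1a2 (0.05) lay above 0, and 5 of the 8, Gja1 among them, had an unadjusted p under 0.05. The intensities of the 8 summed to 17914 and 17999 on the WT arrays and to 17391 and 17804 on the RKO arrays. Of 5 listed skeletal muscle genes 3 were tested and 0 passed, but all 3 lay above 0 (0.14 to 0.18), 2 of them, Ckm and Acta1, at an unadjusted p under 0.05. Mylpf (-0.14, RKO below WT) and Myh4 (0.10, RKO above WT) were below the brightness filter and split in sign. The 3 tested muscle genes summed to 802 and 795 on the WT arrays and to 958 and 832 on the RKO arrays. The part of either cell type in the value of Pygm was not tested, and in such bulk tissue fewer cells of a type and less RNA per cell cannot be told apart.

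**Figure D4:**
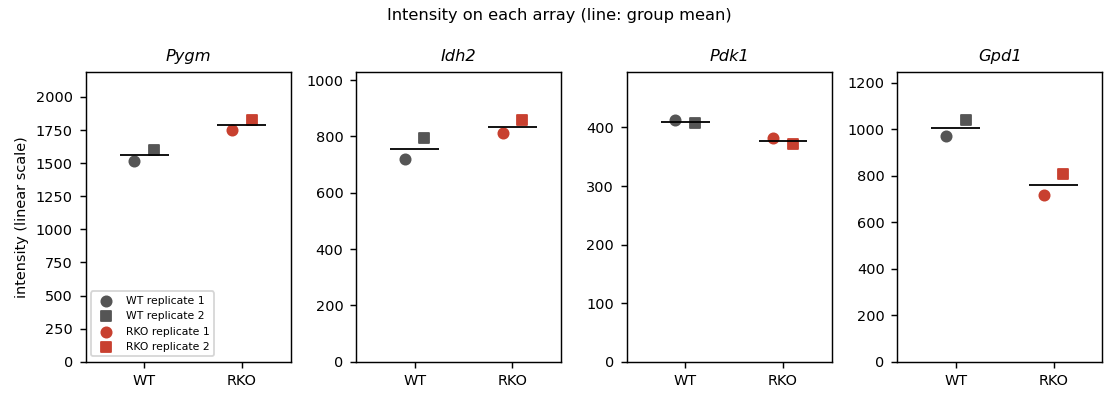
Intensity on a linear scale (y axis, from 0) on each array for Pygm, Idh2 and Pdk1, the members with the lowest unadjusted p, and for Gpd1, a gene of the wider pathway; lines are group means of 2 arrays. RKO lies above WT for Pygm and Idh2 and below WT for Pdk1 and Gpd1, and only Gpd1 passed the test.

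In the pentose phosphate branch 2 genes were tested and both groups overlapped. Pgd, the second NADPH-producing enzyme of the branch, had 1020.5 and 1028 in WT and 1044 and 990.2 in RKO (-0.01, SE 0.057). Tkt, the transketolase that returns carbon to glycolysis, had 906 and 943 in WT and 859 and 918 in RKO (-0.06, SE 0.0595, adjusted p = 0.788).

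Further genes of the same pathways gave 1 call. Of 83 such genes outside the list, 64 were tested, 0 rose, 1 fell and 63 did not pass, with a median difference of 0.01. The 1 call among 64 was near the share of all tested genes (1.60%), and 5 (7.81%) had an unadjusted p under 0.05, against 12.8% of all tested genes. The gene that fell was Gpd1, the cytosolic glycerol phosphate dehydrogenase, which diverts triose phosphate from glycolysis toward glycerolipids and, in rodent brain, is known as an oligodendrocyte enzyme. WT arrays read 972 and 1038 and RKO arrays 716 and 808, a 1.32-fold fall (log2 difference -0.40, SE 0.0694, adjusted p = 0.0142 in limma), with no overlap. The call was lost without RKO replicate 1 (-0.31, adjusted p = 0.163) and when dim genes were kept in the fit (adjusted p = 0.191).

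Of 8 oligodendrocyte markers 7 were tested: Opalin, a myelin protein, fell (-0.30), 0 rose and 6 did not pass. All 7 lay below 0, from -0.30 to -0.05, and their intensities summed to 31769 and 30770 on the WT arrays and to 29127 and 29271 on the RKO arrays. Their part in the value of Gpd1 was not tested. Gpd2, the mitochondrial partner of the glycerol phosphate shuttle, stood at -0.01 and Gpd1l at -0.06.

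The highest of the further genes were Glud1, the mitochondrial glutamate dehydrogenase that feeds oxoglutarate into the cycle (0.20, SE 0.0598, adjusted p = 0.152), and Tigar, a phosphatase that lowers fructose 2,6-bisphosphate (0.19, SE 0.0562, adjusted p = 0.153). Glud1 had 2856 and 3032 in WT and 3302 and 3479 in RKO, and with an intensity trend it was called as well. Tigar had 529 and 548 in WT and 623 and 606 in RKO. Slc2a1, the glucose transporter of the blood-brain barrier and glia, was at 0.03, Aldoc, the aldolase of astrocytes, at 0.05, and Pdk4, the kinase induced by fasting in muscle and liver, at 0.01.

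By pathway, the tested further genes numbered 15 in glucose transport and glycolysis (median -0.02, with Gpd1 called), 2 in gluconeogenesis (-0.04), 8 in pyruvate and lactate metabolism (0.02), 14 in the citrate cycle and its shuttles (0.03), 19 in glycogen metabolism (-0.02) and 6 in the pentose phosphate pathway (0.02). The last 5 held 0 calls. In the citrate cycle and shuttle list 12 of 14 (85.7%) lay above 0, against 43.2% of all tested genes. Over all 64 further genes the share was 53.1%. RKO replicate 2 exceeded RKO replicate 1 in 13 of the 14 (92.9%), against 68.1% of all tested genes. Of 15 tested hypoxia-responsive genes outside these pathways 0 passed in limma and 0 had an unadjusted p under 0.05, with values from -0.14 for P4ha1 to 0.15 for Ankrd37 and a median of 0.0029. Hif1a, the oxygen-regulated subunit of the hypoxia factor, had overlapping groups.

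The comparison did register differences elsewhere in these arrays. Nr1d1 had intensities of 2897 and 3099 in WT and 1259 and 1229.7 in RKO. Its log2 difference was -1.27 (SE 0.0641, adjusted p = 0.00385 in limma over all genes without the filter). Among genes above the 60th percentile its adjusted p in limma was 9.7e-11. In the fit without the filter the call was lost without either RKO array. The difference was then -1.28 without RKO replicate 1 and -1.25 without RKO replicate 2. All 8 dopamine neuron markers lay above 0, with Th (0.72), Slc18a2, Ddc, Slc6a3 and Drd2 rising and a summed intensity of 12343 and 12638 in WT against 16335 and 16652 in RKO, so defining markers of the labelled tissue were present in both groups. General neuron markers, Eno2 among them, had 0 of 8 passing in limma (0 at an unadjusted p under 0.05) and a median of 0.02. Of 8 leptomeningeal genes 7 were tested and 5 fell (Ogn by 1.11 on the log2 scale, Islr, Slc6a13, Dcn and Slc22a6). The other 2, Col1a1 (0.13) and Col1a2 (0.07), had RKO above WT and did not pass. The 7 summed to 3824 and 3865 on the WT arrays against 2948 and 2962 on the RKO arrays.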

How the data were processed

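The authors deposited 1 table of normalized intensities, on a linear scale, for the probe sets of every array. The submitters' processing notes list GCOS and RMA and give no version or setting. Where RMA includes quantile normalization, as it commonly does, a shift common to most genes would not be seen.

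Here intensities were taken to log2 with no pseudocount. Of 35556 probe sets, 21789 had 1 gene symbol in the platform annotation, 1621 several and 12146 none listed. Genes whose mean log2 value was under 7.38 (intensity 167), which is the 40th percentile over the probe sets, were left out. RKO and WT were compared with limma 3.58.1 under R 4.3.3 (lmFit, eBayes, two-sided), with Benjamini-Hochberg adjustment over 13587 genes; the residual degrees of freedom were 2, with 8.73 from the prior. The script was tested on simulated data. The number of arrays limits the precision, and an exact permutation test of 2 against 2 arrays cannot go below p = 0.333. No arrays shared more than 5 identical values. Array medians were 236 to 240.1 over all probe sets and 539.8 (RKO replicate 1) to 558.7 over tested genes.

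The members, the companion, hypoxia and marker lists and the tests were chosen with earlier results of these data known. Every tested member with an unadjusted p under 0.05, or highest or lowest in its role group, was described on every array; of other lists, the called genes and some extremes were named, and Slc2a1, Aldoc, Pdk4, Gpd2, Gpd1l and Hif1a were added after their values were seen. Promoter sequences are RefSeq's (GRCm38.p6), matched by symbol. Alternatives covered the filter, centring, quantile normalization, the variance trend, a pseudocount, averaging of probe sets, a replicate block and leaving out each array.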

Additional observations from a re-analysis of the deposited data

How the results depend on the processing

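The count of 0 called members was the same under 11 alternatives, leave-one-out included, and became 2 (Pygm and Pdp1) with an intensity trend in the variance. Arrays of the same replicate number did not deviate together (correlation of deviations from the group means -0.114). With 2 arrays a group the crossed numbers must give the opposite value (0.114), so this cannot show whether arrays were paired. A replicate block called 0 members and 259 genes in all. A crossed replicate block, chosen after seeing the data, called 1 member (Pygm) and 696 genes in all. Of all tested genes, 218 in the main comparison became 31 with no filter, 455 with median centring, 499 with the trend and 73 to 293 leaving out 1 array each, the lowest without RKO replicate 1 and 99 without RKO replicate 2. Called companion genes became 0 with no filter, 2 with the trend (Gpd1 and Glud1) and 0 to 1 leaving out 1 array each. Nr1d1 ran from -1.32 to -1.22 and Gpd1 from -0.49 to -0.31 over leave-one-out fits, and Gpd1, at -0.40, lost its call with no filter. Leaving out 1 array turned the sign of Hk1 (-0.017 to 0.037), Eno2 (-0.017 to 0.069), Pdha1 (-0.0065 to 0.068) and Pgd (-0.049 to 0.027), and quantile normalization turned Pgd (0.013). Without changing sign, leaving out 1 array moved Me2 (-0.18 to -0.07), Pfkfb2 (-0.18 to -0.06), Tkt (-0.11 to -0.01), Pkm (0.0048 to 0.08), Slc16a1 (0.02 to 0.09), Me3 (0.06 to 0.12), Suclg2 (-0.10 to -0.05), Gys1 (-0.06 to -0.02), Slc2a3 (0.02 to 0.03) and Idh2 (0.07 to 0.22) by over 1.5 times. The median member moved between -0.017 and 0.025. A lone array is assumed to vary like the other group; the trend and filter change the spread estimate or the genes tested, and other causes were not tested. With 2 arrays a group the number of arrays limits the precision.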
